A study of Mus musculus with 8 samples.

Results

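The genes described here encode enzymes of lipid metabolism that were measured by RNA sequencing in *Tdrd6*-/- and *Tdrd6*+/- round spermatids of the mouse. They were chosen by gene symbol alone, as every gene whose symbol begins with Acad, Acsb, Acsl, Acsm, Acss, Acot and a digit, Cpt1, Cpt2, Elovl, Fads and a digit, Lpcat, Agpat, Pnpla, Hsd17b or Pla2g, or that has 1 of a few stems of sterol and ketone body synthesis genes, *Cyp51* among them. The rule found 113 of the 19077 distinct transcripts and 68 of the 12200 genes in 3 deposited tables, which together hold 19882 entries because a transcript can be listed in more than 1 table. No Acsm gene was among them. The symbols were not chosen from the values, but the selection was made with earlier results of these data known.

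TDRD6 is a tudor domain protein of the chromatoid body, the RNA and protein granule of round spermatids, and the study asked how its loss alters the transcripts of these cells. The *Tdrd6*-/- group and the *Tdrd6*+/- group had 4 libraries each, all from C57BL/6 testes at postnatal day 26. Both genotypes carry human CD4 (hCD4) knocked into the *Tdrd6* locus, in frame with its start codon, and the cells were captured with anti-hCD4 magnetic beads, so the *Tdrd6*+/- controls also carry 1 targeted allele. The capture takes every cell that uses the *Tdrd6* promoter, and the cells are an enriched preparation and not a pure one. The labels describe poly-dT enrichment of mRNA, and the methods describe removal of ribosomal RNA instead.

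Fatty acids enter metabolism as acyl-CoA thioesters, made by acyl-CoA synthetases and split again by thioesterases. Acyl-CoAs are carried into mitochondria by carnitine palmitoyltransferases for beta oxidation, lengthened and desaturated by elongases and desaturases, or built into membrane phospholipids by acyltransferases, and phospholipases release them again. Spermatid membranes are rich in very long polyunsaturated fatty acids, and the acrosome and the sperm tail midpiece are built while these cells remodel their membranes.

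For each transcript the authors deposited 1 FPKM value per genotype, a number of fragments scaled to transcript length and library size in which Cuffdiff combined the 4 libraries. Every level below is such a pooled value. No library has a value of its own, so neither an SD nor a test of these differences could be made, and no overlap between the 4 and 4 libraries can be given. The log2 difference is that of FPKM + 0.1 in *Tdrd6*-/- over *Tdrd6*+/- spermatids, which understates the change of transcripts of low level. A transcript was counted as higher or lower when this difference was at least 1.5-fold (0.58 on the log2 scale) and its FPKM was at least 1 in the genotype where it was higher. The FPKM of 2 transcripts of 1 gene rest on reads that they largely share, and the split between them is an estimate.

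Across all transcripts, 15596 passed the FPKM minimum, of which 1404 (9%) were at least 1.5-fold higher and 1492 (9.57%) at least 1.5-fold lower in *Tdrd6*-/- spermatids. The 3 *Tdrd6* transcripts had 1.29, 0.174 and 0 FPKM in *Tdrd6*-/- spermatids, against 40.6, 16.0 and 0.540 FPKM in *Tdrd6*+/- spermatids. The acrosomal genes *Acrv1*, *Spaca1*, *Zpbp* and *Acr*, which round spermatids express, were present at 45.1 to 213 FPKM in *Tdrd6*-/- and 61.7 to 258 FPKM in *Tdrd6*+/- cells. All their log2 differences were negative, from -0.45 for *Spaca1*-002 to -0.10 for *Acr*-201, and none was past the fold. The late spermatid marker list (15 of its 15 genes, 24 transcripts) summed to 7603 FPKM in *Tdrd6*-/- and 23328 FPKM in *Tdrd6*+/- cells, with 13 transcripts lower and 0 higher. Most of both sums came from *Tnp1* (1840 and 6466 FPKM in *Tdrd6*-/- and *Tdrd6*+/- cells), *Prm1* (1162 and 5521 FPKM), *Tnp2* (1254 and 5073 FPKM) and *Prm2* (714 and 2592 FPKM). The other 11 transcripts were within the fold, among them *Odf2*-009 at 657 and 656 FPKM, and 5 of the 24 values were positive. The pachytene and diplotene list (16 of 16 genes) summed to 7230 and 8738 FPKM in *Tdrd6*-/- and *Tdrd6*+/- cells, with 1 of 22 transcripts higher and 1 lower. More than any other transcript, *Ldhc*-001 weighed on these sums, with 4194 and 5634 FPKM in *Tdrd6*-/- and *Tdrd6*+/- cells. The log2 differences of this list were positive in 11 and negative in 11 transcripts, with a median of 0.02. For Leydig cells 6 of 8 markers were listed and summed to 28.5 and 29.3 FPKM in *Tdrd6*-/- and *Tdrd6*+/- cells, and for Sertoli cells 8 of 12 were listed and summed to 41.5 and 45.4 FPKM. Of these, 6 of 7 Leydig and 6 of 11 Sertoli transcripts passed the FPKM minimum, and none of those was past the fold. No transcript of these 4 lists was at 0. The Sertoli markers *Amh*, *Fshr*, *Rhox5* and *Sox9* and the Leydig markers *Lhcgr* and *Hsd11b1* had no entry in the tables used here. The part of this difference in late spermatid transcripts in the results below was not tested, and fewer cells of a type and less RNA per cell cannot be told apart in such samples.

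Of the 113 lipid enzyme transcripts, 90 passed the FPKM minimum and 23 did not. Among the 90, 5 (5.56%) were higher in *Tdrd6*-/- spermatids, beside the 9% of all transcripts, and 13 (14.4%) were lower, beside 9.57%. The other 72 lay within 1.5-fold. Of the 5 higher transcripts 2 belong to *Pnpla7* and 1 to *Acad11*, and the 13 lower ones to *Elovl1*, *Agpat2*, *Pla2g6*, *Pla2g10*, *Pla2g4b*, *Acsl1*, *Acsl5*, *Acot8*, *Cpt2* and, with another of its transcripts, *Acad11*. The median log2 difference was -0.13, beside 0.00 for all transcripts past the minimum, with 32 positive and 58 negative values. In sum the 113 transcripts had 2091 FPKM in *Tdrd6*-/- and 2376 FPKM in *Tdrd6*+/- spermatids. These directions depend on how the genotypes are scaled: the 19077 transcripts summed to 494391 FPKM in *Tdrd6*-/- and 595632 FPKM in *Tdrd6*+/- spermatids, and scaling both to the same sum raised the log2 ratio of FPKM by 0.27, turned the median to 0.16 (0.13 over the same 90 transcripts) and gave 11 higher (11.5% of 96, beside 23.4% of all) and 4 lower (4.17%, beside 4.48%). The median of all transcripts rose with it, from 0.00 to 0.28 (0.27 over the same 15596). The lipid enzyme median was below that of all transcripts. The scaling adds nearly the same amount to every log2 difference, so it could not change that order and does not test it. Medians that change sign under that scaling are given with both values for the families below. A transcript that passed the minimum through its higher genotype alone was counted with the others.

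**Figure D1:**
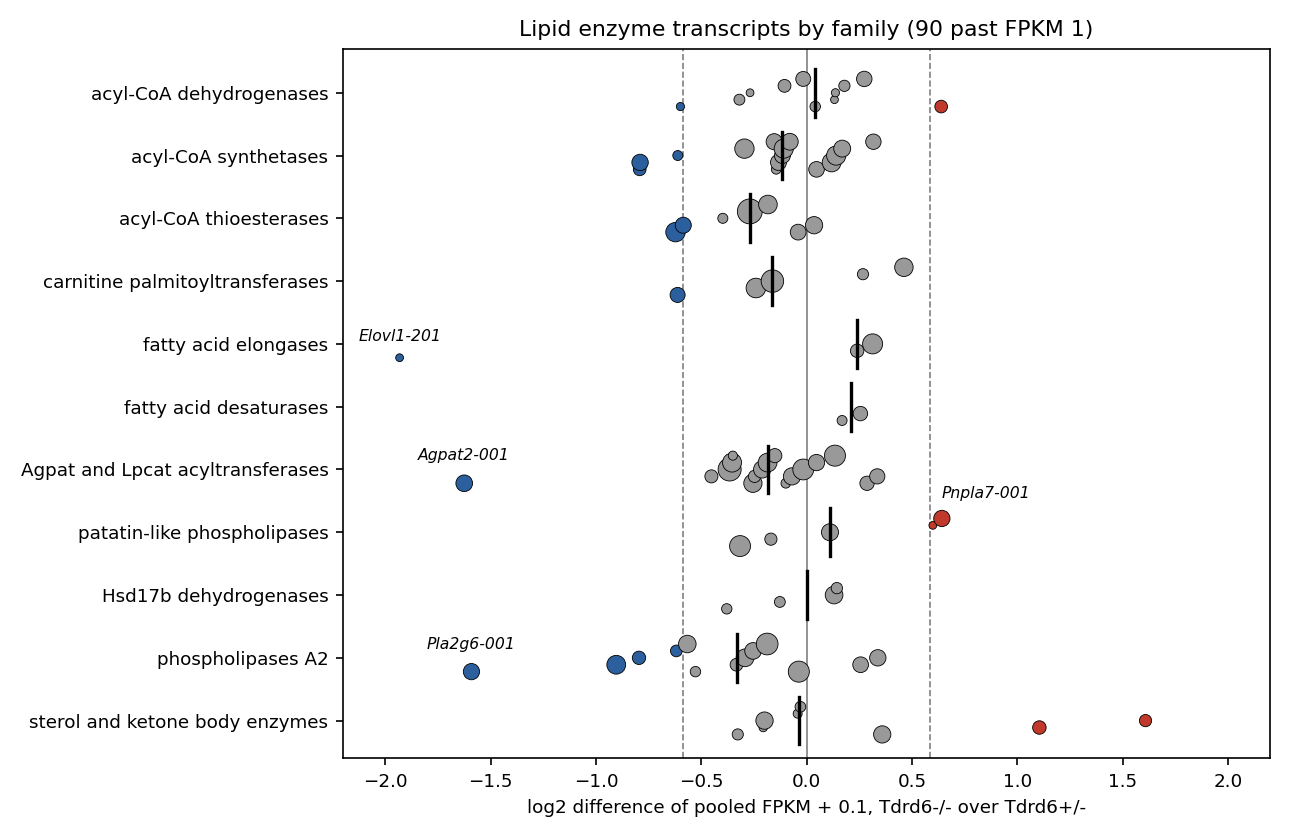
Log2 difference of pooled FPKM + 0.1 between *Tdrd6*-/- and *Tdrd6*+/- spermatids (x axis) for the 90 lipid enzyme transcripts past FPKM 1, in 11 families (y axis). Each point is a transcript, larger where its mean FPKM is higher, in red where at least 1.5-fold higher and in blue where at least 1.5-fold lower in *Tdrd6*-/-, the bars are family medians and the dashed lines mark 1.5-fold. *Elovl1*-201, *Agpat2*-001 and *Pla2g6*-001 lie farthest to the left at -1.93, -1.62 and -1.59, and *Pnpla7*-001 is on the right at 0.64.

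The sequences across 2 pairs of diverging splice junctions are shown because they distinguish a transcript past the fold from the main transcript of its gene, in *Pla2g6* and *Cpt2*. Each is 30 bases of coding sequence in the mm9 build (GENCODE M1 annotation), read 5′ to 3′ on the minus strand, with the 15 bases before the junction in lower case and the first 15 bases of the next exon in capitals. The *Pla2g6* pair (chromosome 15) shares the exonic bases chr15:79136133-79136147. *Pla2g6*-201 continues at chr15:79134885-79134899, in an exon of 165 bases, and *Pla2g6*-001 at chr15:79133113-79133127. The *Cpt2* pair (chromosome 4) shares chr4:107585246-107585260, after which *Cpt2*-001 continues at chr4:107580816-107580830, in an exon of 1305 bases, and *Cpt2*-003 at chr4:107577154-107577168.
Pla2g6-201: ccaagatcagcaagcTGATTACCAGGAAGG
Pla2g6-001: ccaagatcagcaagcAGCTTCAGGATCTCA
Cpt2-001: ccagctacatctcagGCCCCTGGTTTGATA
Cpt2-003: ccagctacatctcagGCCAGGGCTTTGACC
Leaving out these exons gives a coding sequence of 2259 bases in *Pla2g6*-001, against 2424 in *Pla2g6*-201, and of 672 bases in *Cpt2*-003, against 1977 in *Cpt2*-001.

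The acyl-CoA synthetases activate fatty acids, and 15 of their 19 transcripts passed the minimum. Of these 0 were higher and 3 (20%) lower, beside 9% and 9.57% of all transcripts. Their median was -0.11 (0.15 when scaled to the same sum, beside 0.27 for all transcripts). *Acsl6*, a long-chain synthetase with a preference for polyunsaturated fatty acids, was the most abundant gene of the family, with a sum over 5 transcripts of 70.8 FPKM in *Tdrd6*-/- and 64.8 FPKM in *Tdrd6*+/- spermatids. Its 4 transcripts past the minimum were all within 1.5-fold. *Acsbg2*, the testis member of the bubblegum synthetases, had 32.3 FPKM in *Tdrd6*-/- and 39.7 FPKM in *Tdrd6*+/- cells for *Acsbg2*-001, the transcript of the family with the highest mean. *Acss2*, which activates acetate in the cytosol and nucleus, had 30.1 FPKM in *Tdrd6*-/- and 27.7 FPKM in *Tdrd6*+/- cells.

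The 3 lower synthetase transcripts came from *Acsl5* and *Acsl1*. *Acsl5*, an intestinal and mitochondrial long-chain synthetase, was lower in both of its transcripts, with 2.27 FPKM in *Tdrd6*-/- and 4.01 FPKM in *Tdrd6*+/- spermatids for *Acsl5*-202 (log2 difference -0.79) and 1.21 and 1.90 FPKM in *Tdrd6*-/- and *Tdrd6*+/- cells for *Acsl5*-201 (-0.61). *Acsl5*-201 (chr19:55327859-55371117) overlaps *Zdhhc6* on the opposite strand over 7038 bases. The library kit marks strand, but whether strand was used in assigning reads is not given in the sources used here, so reads of such overlaps are uncertain. *Acsl1*, the main synthetase of oxidative tissues, diverged by transcript. *Acsl1*-004, a short model of 441 bases with no annotated 5′ UTR, had 7.88 FPKM in *Tdrd6*-/- and 13.7 FPKM in *Tdrd6*+/- cells (-0.79). The full-length *Acsl1*-002 had 32.0 and 34.5 FPKM in *Tdrd6*-/- and *Tdrd6*+/- cells (-0.11), and *Acsl1*-001 had 8.22 and 7.96 FPKM (0.05). Neither full-length transcript passed the fold, and *Acsl1*-004 made up 16.4% of the summed FPKM of the gene in *Tdrd6*-/- and 24.4% in *Tdrd6*+/- spermatids. *Acsl3*, a synthetase of the endoplasmic reticulum and lipid droplets, had 2 transcripts past the minimum, at -0.15 and -0.13.

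The acyl-CoA thioesterases hydrolyse acyl-CoA to the free acid. *Acot7*, the cytosolic enzyme for long chains, gave the most abundant lipid enzyme transcript of all 113, *Acot7*-001, with 531 FPKM in *Tdrd6*-/- and 640 FPKM in *Tdrd6*+/- spermatids (-0.27). This difference was inside the fold limit. *Acot8*, the peroxisomal thioesterase, was lower in both of its transcripts. *Acot8*-001 (chr2:164618268-164630382) had 29.3 FPKM in *Tdrd6*-/- and 45.1 FPKM in *Tdrd6*+/- spermatids (-0.62), and *Acot8*-002 had 7.58 FPKM in *Tdrd6*-/- and 11.4 FPKM in *Tdrd6*+/- spermatids (-0.59). Their 3′ ends overlap *Snx21* on the opposite strand over 1049 bases. The mitochondrial *Acot9* had 24.5 and 27.9 FPKM in *Tdrd6*-/- and *Tdrd6*+/- cells, and its single-exon copy *Acot10* had 8.47 and 8.71 FPKM. The coding sequences of *Acot9* and *Acot10* are identical at 1283 of 1320 bases (97.2%), so the division of reads between them is uncertain. The family had 7 of 8 transcripts past the minimum, with 0 higher, 2 (28.6%) lower and a median of -0.27. Among all transcripts 9% were higher and 9.57% lower. Scaled to the same summed FPKM the median of these 7 was 0.00, beside 0.27 for all transcripts.

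Carnitine palmitoyltransferases move long acyl chains into mitochondria, and all 5 of their transcripts passed the minimum. Of these 0 were higher and 1 (20%) lower, beside 9% and 9.57% of all transcripts. Their median was -0.16 (0.11 when scaled to the same sum, beside 0.27 for all transcripts). *Cpt1b*, the muscle form of the outer membrane enzyme, had 153 FPKM in *Tdrd6*-/- and 171 FPKM in *Tdrd6*+/- spermatids. Its annotated transcript lies, over its whole 9459 bases of genome, within the span of *Chkb* on the same strand. *Cpt1c*, the brain form, had 36.6 and 43.3 FPKM in *Tdrd6*-/- and *Tdrd6*+/- cells, and *Cpt1a*, the liver form, 2.28 and 1.88 FPKM. In spermatids of both genotypes the muscle form was thus the most abundant of the 3, on the length-scaled FPKM scale. *Cpt2*, the inner membrane enzyme, differed in direction by transcript. *Cpt2*-001 (chr4:107576586-107596215), with the exon of 1305 bases, had 28.0 FPKM in *Tdrd6*-/- and 20.3 FPKM in *Tdrd6*+/- spermatids (0.46), short of the limit and not counted as higher. *Cpt2*-003, which skips that exon, had 5.18 FPKM in *Tdrd6*-/- and 7.97 FPKM in *Tdrd6*+/- spermatids (-0.61). The share of *Cpt2*-001 was 84.4% in *Tdrd6*-/- and 71.8% in *Tdrd6*+/- spermatids. The sum of both had 33.1 FPKM in *Tdrd6*-/- and 28.3 FPKM in *Tdrd6*+/- cells (0.23).

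Acyl-CoA dehydrogenases catalyse the first step of each beta oxidation cycle. They were expressed at a low level, and 11 of 13 transcripts passed the minimum, with a median of 0.04. Of these 1 was higher and 1 lower (9.09% each), beside 9% and 9.57% of all transcripts. *Acadvl*-001, of the very long chain enzyme, had 8.34 FPKM in *Tdrd6*-/- and 6.88 FPKM in *Tdrd6*+/- cells (0.27), the highest mean of the family. *Acadvl*-002 had 1.72 and 2.17 FPKM in *Tdrd6*-/- and *Tdrd6*+/- cells (-0.32). *Acadm* and *Acads*, for medium and short chains, had 1.01 and 0.878 FPKM in *Tdrd6*-/- cells, against 0.913 and 1.08 FPKM in *Tdrd6*+/- cells. The single higher and the single lower transcript were both from *Acad11*, an atypical dehydrogenase for long-chain and hydroxylated acids. *Acad11*-201 had 3.81 FPKM in *Tdrd6*-/- and 2.41 FPKM in *Tdrd6*+/- cells (0.64), and *Acad11*-002 had 0.829 and 1.31 FPKM in *Tdrd6*-/- and *Tdrd6*+/- cells (-0.60). The main form, *Acad11*-001, had 6.30 and 6.37 FPKM in *Tdrd6*-/- and *Tdrd6*+/- cells, and the sum over the 3 was 10.9 and 10.1 FPKM (0.12). *Acad11*-201 overlaps other annotated genes, so its reads are uncertain.

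**Figure D2:**
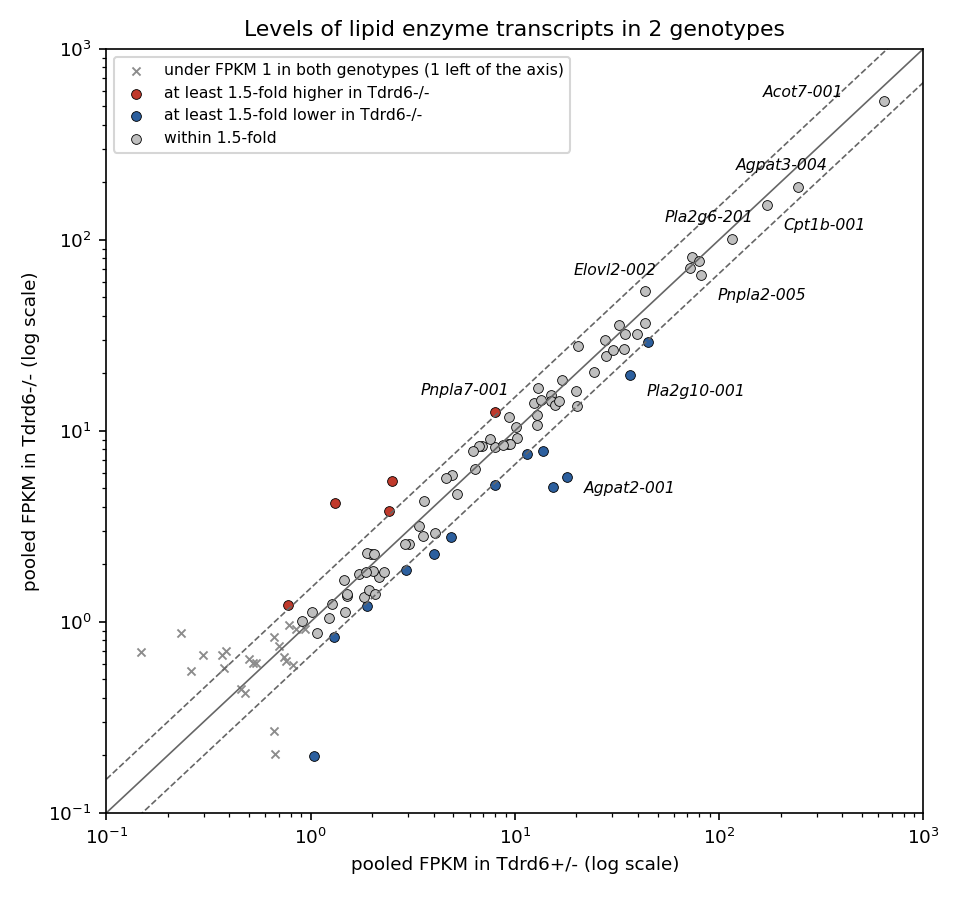
Pooled FPKM of each lipid enzyme transcript in *Tdrd6*-/- (y axis, log scale) and *Tdrd6*+/- spermatids (x axis, log scale). Points are transcripts, crosses those under FPKM 1 in both genotypes (1 more, *Acsbg2*-201, lies left of the x axis), the solid line marks equal FPKM and the dashed lines 1.5-fold. The most abundant transcript, *Acot7*-001 (531 and 640 FPKM in *Tdrd6*-/- and *Tdrd6*+/-), and those above 100 FPKM all lie between the dashed lines.

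Elongases and desaturases make the very long polyunsaturated acids of the spermatid. *Elovl2*, the elongase that mouse spermatogenesis requires for these acids, was the only abundant elongase, with 53.8 FPKM in *Tdrd6*-/- and 43.3 FPKM in *Tdrd6*+/- spermatids for *Elovl2*-002 (0.31). *Elovl5*, which acts on shorter polyunsaturated acids, had 4.28 and 3.61 FPKM in *Tdrd6*-/- and *Tdrd6*+/- cells (0.24). The desaturases *Fads2* and *Fads1* of the same pathway had 5.89 and 1.65 FPKM in *Tdrd6*-/- cells, against 4.92 and 1.45 FPKM in *Tdrd6*+/- cells. The log2 differences of these 4 genes were 0.17 to 0.31, all positive and all short of the fold. *Elovl2*-002, *Elovl5* and *Fads1* are in the long 3′ UTR class of the deposited tables. In that class 2281 of all 3169 transcripts past the minimum were positive (median 0.20). *Fads2* is in the short class, where 2505 of 6624 were positive (median -0.15). Of 8 elongase transcripts 3 passed the minimum, with 0 higher and 1 (33.3%) lower, beside 9% and 9.57% of all transcripts. Of 3 desaturase transcripts 2 passed, and neither was past the fold. *Elovl1*, for saturated very long chains, was near or under FPKM 1 in all 4 of its transcripts. The 1 that passed, *Elovl1*-201, had 0.199 FPKM in *Tdrd6*-/- and 1.04 FPKM in *Tdrd6*+/- cells (-1.93), while *Elovl1*-003, under the minimum, had 0.692 and 0.148 FPKM in *Tdrd6*-/- and *Tdrd6*+/- cells.

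The acyltransferases of glycerol phosphate and lysophospholipids formed the family with the second highest summed FPKM after the thioesterases, with 486 FPKM in *Tdrd6*-/- and 563 FPKM in *Tdrd6*+/- spermatids. Of 18 transcripts 17 passed the minimum, 0 were higher and 1 (5.88%) was lower, beside 9% and 9.57% of all transcripts. Negative values numbered 13 (76.5%), beside 49.7% of all transcripts. The median was -0.19 (0.08 when scaled to the same sum, beside 0.27 for all transcripts). The lower one was *Agpat2*-001 (chr2:26448577-26459852), the enzyme for phosphatidic acid that is mutated in human congenital lipodystrophy, with 5.76 FPKM in *Tdrd6*-/- and 18.0 FPKM in *Tdrd6*+/- spermatids. The log2 difference was -1.62, a 3.08-fold lower level. Its gene span lies within the protein-coding model *Gm20532* and overlaps *Egfl7* over 64 bases, both on the opposite strand. *Agpat1*, which catalyses the same reaction, did not share this difference. Its main transcript *Agpat1*-008 had 81.1 FPKM in *Tdrd6*-/- and 73.8 FPKM in *Tdrd6*+/- cells (0.13), and the sum over 3 transcripts was 106 and 99.0 FPKM in *Tdrd6*-/- and *Tdrd6*+/- cells.

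*Agpat3*, an acyltransferase that incorporates polyunsaturated acids into phosphatidic acid, was the most abundant member of the acyltransferases. *Agpat3*-004, with a 3′ UTR of 76 bases, had 189 FPKM in *Tdrd6*-/- and 243 FPKM in *Tdrd6*+/- spermatids (-0.37). *Agpat3*-001, with the same coding length of 1131 bases and a 3′ UTR of 4509 bases, had 7.86 and 6.21 FPKM in *Tdrd6*-/- and *Tdrd6*+/- cells (0.34). *Agpat3*-005 and *Agpat3*-002, both with 3′ UTRs of 2124 bases, had 26.6 and 2.93 FPKM in *Tdrd6*-/- cells, against 30.2 and 4.05 FPKM in *Tdrd6*+/- cells. Thus the long 3′ UTR forms of 1 gene lay on both sides of 0, and none passed the fold. *Lpcat3*, which places polyunsaturated chains in phosphatidylcholine, was nearly equal at 71.0 FPKM in *Tdrd6*-/- and 71.8 FPKM in *Tdrd6*+/- cells (-0.02). *Lpcat2b* had 26.9 and 20.4 FPKM for 2 transcripts in *Tdrd6*-/- cells, against 34.4 and 24.4 FPKM in *Tdrd6*+/- cells, and since these share an identical coding sequence of 1551 bases their split is uncertain. *Agpat6* and *Agpat9*, glycerol phosphate acyltransferases despite their names, had differences of 0.29 for *Agpat6* and -0.25 to -0.10 for the 3 *Agpat9* transcripts.

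Phospholipases A2 release fatty acids from phospholipids. Of 16 transcripts 13 passed the minimum, 0 were higher and 4 (30.8%) were lower, beside 9% and 9.57% of all transcripts, and 11 of the 13 values were negative, with a median of -0.33. After scaling to the same summed FPKM the median of these 13 was -0.07, with 1 higher and 2 lower, beside 23.4% and 4.48% of all transcripts. The 4 lower transcripts came from 3 genes. *Pla2g10* encodes a secreted enzyme that mouse sperm carry in the acrosome, and *Pla2g10*-001 (chr16:13715152-13731076) had 19.5 FPKM in *Tdrd6*-/- and 36.6 FPKM in *Tdrd6*+/- spermatids (-0.90). *Pla2g10*-002 had 13.5 and 20.1 FPKM in *Tdrd6*-/- and *Tdrd6*+/- cells (-0.57), just short of the limit, and the sum over both was 1.71-fold lower, at 33.0 FPKM in *Tdrd6*-/- and 56.6 FPKM in *Tdrd6*+/- cells. *Pla2g10*-001 overlaps the noncoding model *1810007I06Rik* on the opposite strand. *Pla2g4b*, a cytosolic phospholipase, had 1.87 FPKM in *Tdrd6*-/- and 2.92 FPKM in *Tdrd6*+/- cells for *Pla2g4b*-008 (-0.62), and its second transcript was under the minimum.

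*Pla2g6*, the calcium-independent phospholipase whose loss impairs sperm motility in mice, had 5 transcripts that differed in direction. *Pla2g6*-201 (chr15:79116660-79158583) had 101 FPKM in *Tdrd6*-/- and 115 FPKM in *Tdrd6*+/- spermatids (-0.19) and made up 77.9% of the gene in *Tdrd6*-/- and 75.6% in *Tdrd6*+/- cells. *Pla2g6*-001 had 5.06 FPKM in *Tdrd6*-/- and 15.4 FPKM in *Tdrd6*+/- cells (-1.59), and *Pla2g6*-005 had 2.77 and 4.88 FPKM in *Tdrd6*-/- and *Tdrd6*+/- cells (-0.80). *Pla2g6*-004 and *Pla2g6*-002 had positive differences within the fold (0.34 and 0.26), with 11.8 and 9.03 FPKM in *Tdrd6*-/- cells, against 9.34 and 7.55 FPKM in *Tdrd6*+/- cells. The exon of 165 bases shown above does not sort these directions. The 2 transcripts with it, *Pla2g6*-201 and *Pla2g6*-005, summed to 104 FPKM in *Tdrd6*-/- and 120 FPKM in *Tdrd6*+/- cells, and the 3 without it to 25.9 and 32.3 FPKM in *Tdrd6*-/- and *Tdrd6*+/- cells. The share of *Pla2g6* FPKM without the exon was therefore 20.0% in *Tdrd6*-/- and 21.2% in *Tdrd6*+/- spermatids, although the log2 difference of *Pla2g6*-001 alone was -1.59. The transcripts without the exon share a coding length of 2259 bases and differ outside the coding sequence, so the lower value of *Pla2g6*-001 rests on an estimated split. The secreted *Pla2g2c* had 77.5 and 79.5 FPKM in *Tdrd6*-/- and *Tdrd6*+/- cells (-0.04), and *Pla2g7*, the platelet-activating factor hydrolase, had 1.41 and 2.07 FPKM (-0.53), just short of the limit.

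**Figure D3:**
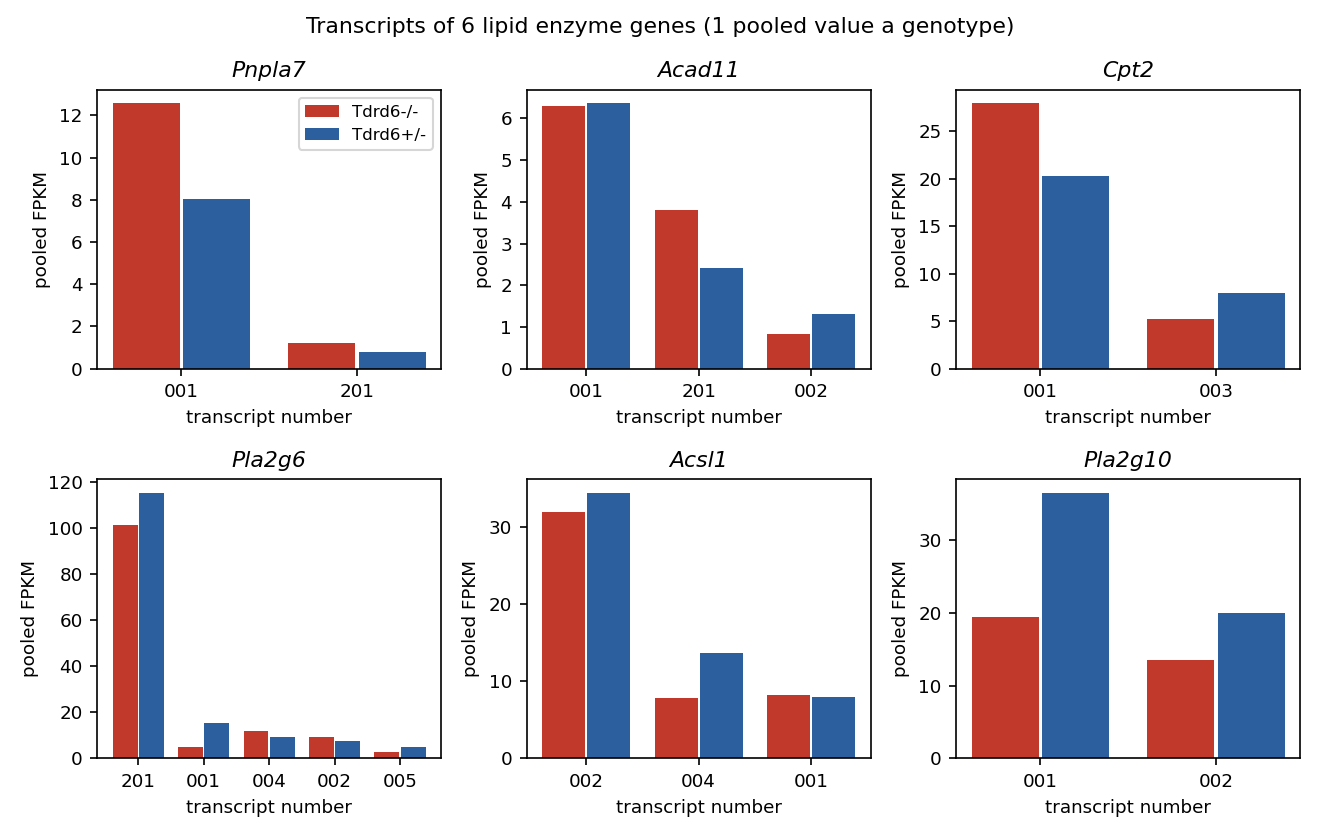
Pooled FPKM (y axis) of every listed transcript (x axis, by its number) of *Pnpla7*, *Acad11*, *Cpt2*, *Pla2g6*, *Acsl1* and *Pla2g10*, in red for *Tdrd6*-/- and in blue for *Tdrd6*+/- spermatids. Each bar is 1 pooled value, so there are no error bars. Both transcripts of *Pnpla7* had the higher and both of *Pla2g10* the lower bar in *Tdrd6*-/-, and those of *Acad11*, *Cpt2*, *Pla2g6* and *Acsl1* lay on both sides.

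The patatin-like phospholipases include the main triglyceride lipase *Pnpla2*, whose transcript *Pnpla2*-005 had 65.3 FPKM in *Tdrd6*-/- and 81.3 FPKM in *Tdrd6*+/- spermatids (-0.32). *Pnpla7*, a lysophospholipase of the neuropathy target esterase type, was the only gene of the family past the fold. *Pnpla7*-001 (chr2:24831553-24909577) had 12.6 FPKM in *Tdrd6*-/- and 8.03 FPKM in *Tdrd6*+/- spermatids (0.64), and *Pnpla7*-201 had 1.23 and 0.778 FPKM in *Tdrd6*-/- and *Tdrd6*+/- cells (0.60). Both were higher and the gene sum was 1.56-fold higher. *Pnpla8*, the mitochondrial and peroxisomal calcium-independent phospholipase, had 14.5 and 13.4 FPKM in *Tdrd6*-/- and *Tdrd6*+/- cells (0.11). Of 8 transcripts of the family, 5 passed the minimum. The 2 higher ones (40%) were both of *Pnpla7* and 0 were lower, beside 9% and 9.57% of all transcripts.

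The sterol and ketone body enzymes had 8 of 9 transcripts past the minimum. Of these 2 (25%) were higher and 0 lower, beside 9% and 9.57% of all transcripts. Their median was -0.04 (0.22 when scaled to the same sum, beside 0.27 for all transcripts). *Cyp51*, the sterol demethylase that is abundant in postmeiotic germ cells, had 14.3 and 16.5 FPKM in *Tdrd6*-/- and *Tdrd6*+/- cells (-0.20), and was not past the fold.

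The 6 Hsd17b genes have 1 transcript each, of which 4 passed the minimum. None of these was past the fold, beside 9% higher and 9.57% lower of all transcripts. *Hsd17b4*, the peroxisomal multifunctional enzyme of beta oxidation, was the most abundant with 18.6 FPKM in *Tdrd6*-/- and 16.9 FPKM in *Tdrd6*+/- cells (0.13). *Hsd17b3*, the last enzyme of testosterone synthesis in Leydig cells, was under the minimum, with 0.554 FPKM in *Tdrd6*-/- and 0.259 FPKM in *Tdrd6*+/- cells. The 23 transcripts under the minimum belong to 21 genes, among them *Acad9*, *Agpat5*, *Elovl6*, *Fads3*, *Pla2g15*, *Pnpla1* and *Pnpla6*. None of the 113 was listed at 0, and the lowest value was that of *Acsbg2*-201, with 0.877 FPKM in *Tdrd6*-/- and 0.000279 FPKM in *Tdrd6*+/- cells.

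When the FPKM of all listed transcripts of a gene were summed, 58 of the 68 genes passed the minimum, of which 2 (3.45%) were higher and 5 (8.62%) lower in *Tdrd6*-/- spermatids. Over all genes the shares were 4.81% and 6.96% of 10732. *Pnpla7* was 1 of the 2 higher genes, and the 5 lower were *Agpat2*, *Pla2g10*, *Acsl5*, *Pla2g4b* and *Acot8*. *Cpt2*, *Pla2g6*, *Acsl1* and *Acad11*, with transcripts past the fold, did not pass it as sums, and the sum for *Elovl1* was not called either. Of the 20 genes with more than 1 transcript past the minimum, 9 had only negative values, 2 (*Pnpla7* is 1 of them) only positive ones and 9 both. The same count was not made over all genes, and transcripts of 1 gene share reads. Whether this split is particular to lipid enzyme genes was therefore not tested.

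The lower transcripts were mostly short. Of 18 lipid enzyme transcripts of up to 1500 bases past the minimum, 8 were lower and 1 higher in *Tdrd6*-/- cells, with a median of -0.48. Among all transcripts of that length 19% were lower and 5.14% higher, with a median of -0.27. The 8 are *Acsl1*-004, both *Acot8* transcripts, *Cpt2*-003, *Elovl1*-201, *Agpat2*-001, *Pla2g10*-001 and *Pla2g4b*-008. From over 1500 to 2500 bases 1 of 24 was lower and 0 higher (median -0.04), beside 8.23% lower and 6.17% higher of all transcripts (median -0.04). From over 2500 to 4000 bases 4 of 43 were lower and 3 higher (median -0.10), beside 5.04% and 9.8% of all (median 0.13). Over 4000 bases, 5 transcripts passed, 0 of them lower and 1 higher (median 0.34), beside 2.57% and 17.6% of all (median 0.29). Across the 90 transcripts the Spearman correlation of the log2 difference with annotated length was 0.39, and across 15420 of all transcripts 0.45. Transcripts are not independent replicates and those of 1 gene share reads, so these correlations are a description. Length therefore moved with the difference in all transcripts as in these, and its part in the single results was not tested.

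**Figure D4:**
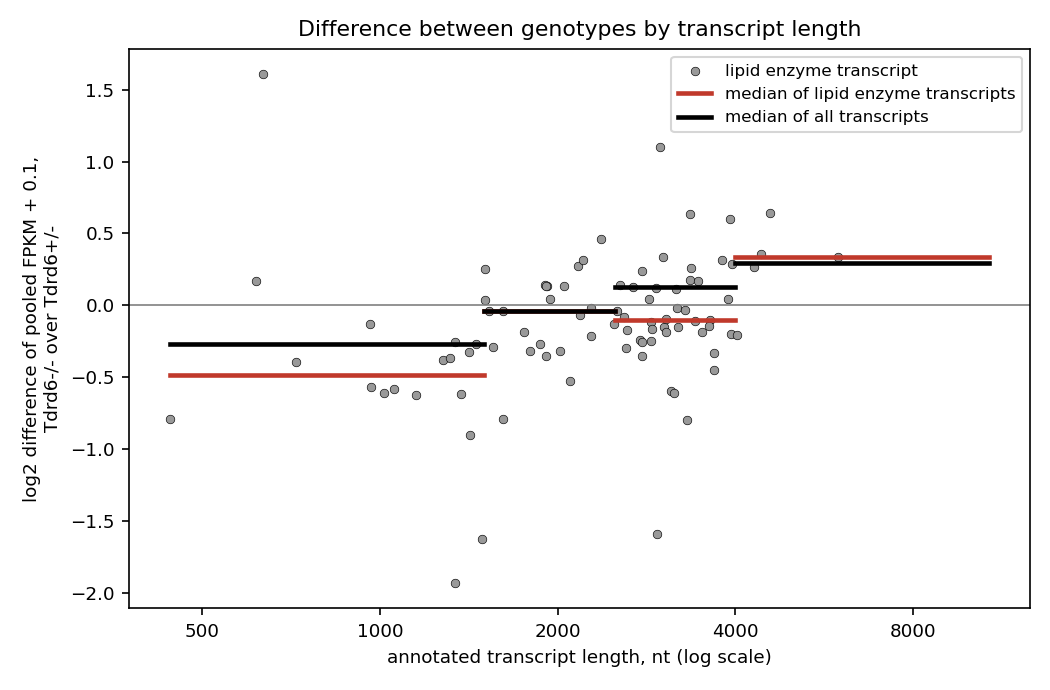
Log2 difference of pooled FPKM + 0.1 between *Tdrd6*-/- and *Tdrd6*+/- spermatids (y axis) against annotated transcript length in bases (x axis, log scale) for the lipid enzyme transcripts past FPKM 1 (points). Red lines are their medians and black lines the medians of all transcripts in the same 4 length bins, at -0.48 and -0.27 in the shortest bin and 0.34 and 0.29 in the longest.

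By the 3′ UTR classes of the deposited tables, 36 lipid enzyme transcripts past the minimum had a short 3′ UTR (up to 350 bases), with 4 higher and 7 lower (median -0.12). Of all short 3′ UTR transcripts 8.06% were higher and 14.7% lower (median -0.15). In the medium class 2 of 42 were higher and 6 lower (median -0.15), beside 9.36% and 6.92% of all (median 0.03). In the long class (over 1500 bases) none of 16 was past the fold, with values from -0.45 to 0.36 and a median of 0.11, beside 10.9% higher and 3.6% lower of all (median 0.20). Transcripts listed in more than 1 table (5 of the 113) count in each class.

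In 4 of the 113 transcripts the annotated stop codon lies more than 50 bases before the last exon junction, a feature by which nonsense mediated decay recognises its targets. They are *Acad11*-201, *Pnpla7*-201, *Elovl1*-201 and *Acsbg2*-201. *Acad11*-201 and *Pnpla7*-201 were higher, *Elovl1*-201 was lower and *Acsbg2*-201 was under the minimum. Of all 259 such transcripts past the minimum, 12.7% were higher and 12.7% lower. In these 4 the whole annotated 3′ UTR is longer than the class of the table that lists them allows, with 389 to 2984 bases.

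Other enzymes and regulators of lipid metabolism, from 7 lists drawn up beside the rule, showed few transcripts past the fold. In mitochondrial beta oxidation 0 of 17 were higher and 1 lower, *Etfb*-001 of the electron transfer flavoprotein, with 29.9 FPKM in *Tdrd6*-/- and 53.3 FPKM in *Tdrd6*+/- cells. In peroxisomal oxidation 0 of 17 were higher and 1 lower. In fatty acid synthesis 1 of 17 was higher and 1 lower, both of *Acly*, ATP citrate lyase, with 2.12 and 1.37 FPKM for *Acly*-001 and 0.253 and 1.09 FPKM for *Acly*-006 in *Tdrd6*-/- and *Tdrd6*+/- cells. Each of these counts was 0% or 5.88% of its list, beside 9% higher and 9.57% lower of all transcripts.

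Among other enzymes of cholesterol synthesis 1 of 16 was higher, *Tm7sf2* of a sterol reductase (1.27 and 0.444 FPKM in *Tdrd6*-/- and *Tdrd6*+/- cells), and 1 lower, *Mvk*-001 of mevalonate kinase (6.78 and 10.6 FPKM), with a median of 0.12. In glycerolipid and phospholipid synthesis 2 of 40 were higher, both of *Pcyt1a* of the phosphatidylcholine pathway (6.39 and 4.19 FPKM for *Pcyt1a*-001 in *Tdrd6*-/- and *Tdrd6*+/- cells), and 2 lower, led by *Pemt*-003 (3.99 and 7.39 FPKM). The most abundant transcripts of these genes were within the fold and had the opposite sign. *Pcyt1a*-003 had 9.70 and 10.7 FPKM and *Pemt*-006 6.86 and 5.69 FPKM in *Tdrd6*-/- and *Tdrd6*+/- cells. In sphingolipid and seminolipid synthesis 1 of 14 was higher, the germ cell ceramide synthase *Lass3* (40.0 and 26.4 FPKM in *Tdrd6*-/- and *Tdrd6*+/- cells), and 0 lower. The seminolipid enzymes of this list, *Gal3st1* and *Ugt8a*, had no entry, so these counts do not cover seminolipid synthesis itself. Among regulators 0 of 16 were higher and 2 (12.5%) lower, led by *Nr1h3*-001 of a sterol-sensing nuclear receptor (2.75 and 4.80 FPKM in *Tdrd6*-/- and *Tdrd6*+/- cells). The more abundant *Nr1h3*-002 was within the fold, with 6.47 and 6.97 FPKM in *Tdrd6*-/- and *Tdrd6*+/- cells (-0.11). Beside the 9% higher and 9.57% lower of all transcripts, the shares of these 4 lists were 6.25%, 5%, 7.14% and 0% higher and 6.25%, 5%, 0% and 12.5% lower, in the order given. The medians of the 7 lists lay between -0.17 and 0.12.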

How the data were processed

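The FPKM values were deposited by the authors, who per the submitters' processing notes aligned reads to mm9 with TopHat2 2.0.9 and Bowtie2 2.10 and used Cufflinks 2.1.1 and Cuffdiff. Cuffdiff combined the 4 libraries of a genotype into 1 value. Its log2 fold changes, test statistics, p-values and q-values stand beside the FPKM in the deposited tables and were not used. Depth per library is not given in the tables, so the precision of a value is unknown.

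Each transcript was taken once, by its identifier. All 113 were found in GENCODE M1 on mm9, as were 18860 of all 19077. Lengths, exons and overlaps come from there. Log2 differences used a pseudocount of 0.1, a minimum FPKM of 1 and a fold of 1.5. The call was run on simulated data with planted changes and no noise. That checks its arithmetic and not the error of the pooled values. Named were all transcripts past the fold, the most abundant of each family, genes with several transcripts past the minimum, the transcripts nearest the limit and, from other lists, the most abundant past the fold in each direction. Some items that this rule names are not reported here. Further genes were named as examples after their values were seen. Genes and lists were chosen with earlier results of these data known. Alternatives are given in the closing section. Python 3.11.15, numpy 2.4.6, pandas 2.3.3, SciPy 1.17.1 and matplotlib 3.10.9 were used.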

Additional observations from a re-analysis of the deposited data

How the results depend on the processing

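No paired analysis was possible because the tables hold 1 pooled value per genotype, and for the same reason no replicate could be left out. As reported, 5 lipid enzyme transcripts were higher and 13 lower (5.56% and 14.4% of 90, beside 9% and 9.57% of all transcripts). With a pseudocount of 1, 3 were higher and 8 lower (3.33% and 8.89%, beside 4.84% and 6.43%). With no FPKM minimum 12 were higher and 15 lower (10.6% and 13.3% of 113, beside 10.4% and 10.4%). With an FPKM of at least 5, 2 were higher and 7 lower (3.64% and 12.7% of 55, beside 5.36% and 8.56%). With 1 transcript per gene 1 was higher and 6 lower (1.72% and 10.3% of 58, beside 5.84% and 7.7%). At a fold of 2, 2 were higher and 3 lower (2.22% and 3.33%, beside 2.73% and 3.05%), and at a ratio of 5 to 4, 9 were higher and 23 lower (10% and 25.6%, beside 22.9% and 22.7%). A pseudocount of 0 and centring on the median of all transcripts left both counts as reported. Of alternatives chosen after seeing the data, gene sums gave 2 higher and 5 lower (3.45% and 8.62% of 58, beside 4.81% and 6.96%), leaving out transcripts with no annotated 5′ UTR gave 2 higher and 12 lower (2.38% and 14.3% of 84, beside 8.99% and 9.56%), and scaling both genotypes to the same summed FPKM gave 11 higher and 4 lower (11.5% and 4.17% of 96, beside 23.4% and 4.48%) and a median log2 difference of 0.16, against -0.13 as reported. The median of all transcripts was 0.28 under that scaling, against 0.00 as reported. Under that scaling *Agpat2*-001, *Elovl1*-201, *Pla2g10*-001 and *Pla2g6*-001 were still lower, all 5 higher transcripts were still higher, and 9 of the 18 were no longer past the fold. A pseudocount of 1 took 7 of the 18 inside the fold. The deposited tables do not say which scaling fits the cells, and no spread between libraries could be set against any of these differences.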
